A study of Mus musculus with 6 samples.

Results

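The insulin-like growth factor (IGF) family was examined as 10 genes of the 27546 in the deposited table: the ligands Igf1 and Igf2, the receptors Igf1r and Igf2r, and the binding proteins Igfbp2 to Igfbp7. The genes were found by symbol, and all 10 were listed. The 6 RNA-Seq libraries came from the distal colon, 3 from Gm31629-/- mice, in which the sequence of the long noncoding RNA Gm31629 on chromosome 1 was deleted, and 3 from WT littermates. All animals were 8 weeks of age, of the strain C57BL/6 by the labels and C57BL/6J by the methods. Both genotypes had drunk water with 3% dextran sulfate sodium (DSS), which damages the lining of the colon, over 7 days, and tissue was taken on day 8, so the groups share the injury and no untreated mice were compared. Each library was taken as 1 mouse, which the labels do not state, and the methods describe the RNA as pooled. The tissue was bulk colon, in which fewer cells of a type and less RNA per cell cannot be told apart. Values are FPKM (fragments mapped to a gene, scaled by its length and by library depth), which allow levels of different genes to be compared per length.

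IGF1 and IGF2 are secreted growth factors that act mainly through the IGF1 receptor, a tyrosine kinase, whereas IGF2R, the cation-independent mannose 6-phosphate receptor, carries lysosomal enzymes and removes IGF2 from the cell surface. The binding proteins hold the ligands outside cells with high affinity, apart from IGFBP7, which binds them weakly, and proteases release the ligands again. In the gut wall, connective tissue and muscle cells are known sources of IGF1 and of several binding proteins, and the epithelium carries the receptor.

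Each library held an estimated 18006000 to 18795100 mapped fragments. Fragments recovered over the listed genes summed to 19046800 to 19882900, above these totals. The estimates or the exon lengths are therefore not exact, and the fragment counts below share this limit. The methods give the animals as males, and the sex-linked transcripts of Gm31629-/- mouse 1 alone had that pattern. Ddx3y, Uty, Kdm5d, and Eif2s3y reached 2.03 to 15.4 FPKM in this mouse and were listed at 0 in the rest, and Xist had 0.00606 FPKM against 8.35 to 13.8 FPKM, so the other 5 libraries differ from the stated sex. Because mouse 1 differs from the rest of its group in this, several of the results that it moved are also given without it. Gm31629 itself was not analysed here, so the genotypes rest on the labels. Over the 14657 genes tested, which averaged 0.5 FPKM or more, the median log2 fold change on log2(FPKM + 1) was 0.15 as deposited and -0.05 after each library was scaled by its median ratio. The 12 markers of colon epithelium summed to 12087 to 13083 FPKM in WT mice and 7191 to 8701 FPKM in Gm31629-/- mice. Of these 12, 8 were lower in every Gm31629-/- mouse and 4 were called lower, Krt8 and Krt19 among them, whereas Epcam and Cdh1 overlapped.

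The 10 genes were chosen with the difference between Gm31629-/- and WT mice in view. Their differences are given as a description, without p-values. In Gm31629-/- mice, 9 of the 10 genes had higher FPKM in all 3 mice than in any WT mouse, and Igf2r overlapped. By the limma fit over all genes, 7 were called (a log2 fold change above 1 and an adjusted p under 0.05; Igf1 and the 6 binding proteins), where the share of all tested genes called higher was 18.4%, and none was called lower, where the share of all genes was 4.64%. With the adjusted p alone, Igf2 and Igf1r also passed, making 9, where the share of all genes was 28.9%. Without Gm31629-/- mouse 1, 7 members were called higher. All 3 Gm31629-/- mice were above all WT mice for 36.3% of all tested genes, and groups did not overlap in either direction for 57.8%. The median log2 fold change was 3.04 over the 10 genes. Nothing is read from these counts, because the genes were selected on the same contrast, and because 4 of them (Igf1, Igf2, Igfbp2, and Igfbp6) had a WT mean under 0.5 FPKM and passed the filter on low values only through the Gm31629-/- mice.

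**Figure D1:**
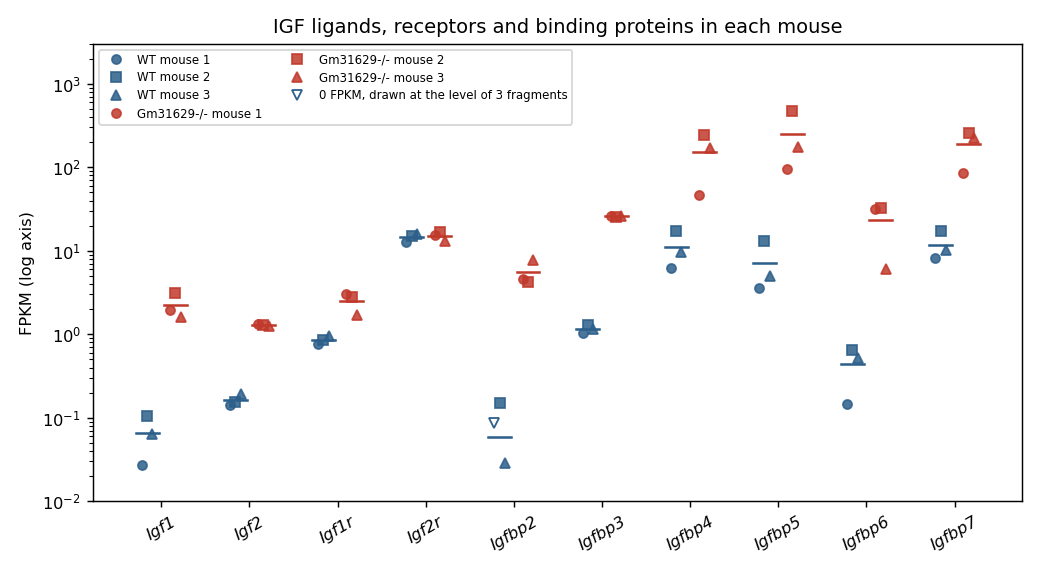
FPKM on a log axis of each of the 10 genes in the 3 WT mice (blue) and the 3 Gm31629-/- mice (red), with symbols for mice 1 to 3 and a horizontal line at each group mean. The groups overlap for Igf2r alone, and the open downward triangle marks the WT mouse in which Igfbp2 is listed at 0, drawn at the level of 3 fragments.

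The genes lie on 7 chromosomes of GRCm38. Igfbp2 (chromosome 1, 72824503 to 72852474, plus strand) and Igfbp5 (72857932 to 72874884, minus strand) lie tail to tail with 5457 bases between them, and Igfbp3 (7206086 to 7213923) and Igfbp4 (99041244 to 99054392) share chromosome 11. Igf1r (67952827 to 68233668) and Igf2 (142650766 to 142666816) are both on chromosome 7. Igf1 lies on chromosome 10 (87858265 to 87937042), Igf2r on chromosome 17 (12682406 to 12769664), Igfbp6 on chromosome 15 (102144362 to 102149511), and Igfbp7 on chromosome 5 (77349240 to 77408041). Antisense genes overlap 4 of these loci, namely Igf1os, Igf2os, Airn at Igf2r, and Gm34648 at Igfbp7. The coding gene Polr2b, at 8.42 to 12.1 FPKM, also overlaps Igfbp7 on the opposite strand, where the Igfbp7 transcript ends. Whether the counting used the strand is not given in the sources used here, so their reads may be mixed with those of the members. Igf1os and Igf2os reached at most 0.146 and 0.0306 FPKM in any library. Airn, the noncoding transcript that silences the paternal Igf2r copy in most tissues, had 1.93, 1.26, and 0.714 FPKM in Gm31629-/- mice 1 to 3 and 0.377, 0.465, and 0.668 FPKM in WT mice 1 to 3.

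The 250 bases before the RefSeq start (GRCm38.p6) are shown for the ligand Igf1, both receptors, and Igfbp5. Igfbp5 had the highest mean of the binding proteins in Gm31629-/- mice, although Igfbp7 exceeded it in mouse 3 (223 against 177 FPKM). These genes were taken because the groups were apart for Igf1, Igf1r, and Igfbp5 and overlapped for Igf2r. Capitals mark the motifs searched on both strands. These were the TATA box, TATAAA, and the GC box, GGGCGG. They also included the CCAAT box, CCAAT, as well as the AP-1 motif, TGACTCA, and the CArG box. No letters are capitalized for Igfbp5, where none of these matched.
Igf1, chr10:87860861-87861110, plus strand: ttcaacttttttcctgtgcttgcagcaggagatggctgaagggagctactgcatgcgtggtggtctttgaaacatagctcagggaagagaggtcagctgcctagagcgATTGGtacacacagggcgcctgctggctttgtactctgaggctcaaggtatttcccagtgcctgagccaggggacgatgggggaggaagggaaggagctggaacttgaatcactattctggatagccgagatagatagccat
Igf1r, chr7:67952007-67952256, plus strand: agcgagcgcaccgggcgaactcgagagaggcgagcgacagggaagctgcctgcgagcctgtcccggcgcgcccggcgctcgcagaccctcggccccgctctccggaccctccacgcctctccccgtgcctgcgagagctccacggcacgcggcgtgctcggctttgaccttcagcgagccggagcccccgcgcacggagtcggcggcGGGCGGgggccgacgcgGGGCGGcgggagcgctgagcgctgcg
Igf2r, chr17:12769707-12769956, minus strand: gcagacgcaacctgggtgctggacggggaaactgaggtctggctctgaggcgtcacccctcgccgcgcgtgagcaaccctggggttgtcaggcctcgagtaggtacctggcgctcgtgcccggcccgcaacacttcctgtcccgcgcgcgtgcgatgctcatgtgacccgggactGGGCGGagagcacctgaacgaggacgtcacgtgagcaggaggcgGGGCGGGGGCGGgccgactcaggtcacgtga
Igfbp5, chr1:72874866-72875115, minus strand: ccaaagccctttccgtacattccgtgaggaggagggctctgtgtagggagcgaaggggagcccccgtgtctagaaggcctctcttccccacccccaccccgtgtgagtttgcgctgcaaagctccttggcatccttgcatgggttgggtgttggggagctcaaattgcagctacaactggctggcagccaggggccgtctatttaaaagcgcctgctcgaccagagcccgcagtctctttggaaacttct
The GC content was 52.8% for Igf1 and 58.8% for Igfbp5, 77.6% for Igf1r and 69.2% for Igf2r, against a median of 52.4% over 32851 promoters. The GC box was found 2 times in Igf1r and 3 times in Igf2r and was not in these windows of Igf1 and Igfbp5. All 10 genes matched a promoter, 14 in all. The GC box was present in 6 of the 14 against 32.7% of all promoters, and the CCAAT box in 3 against 33.8%. The TATA box was in 2 against 12.4%, the AP-1 motif in 1 against 4.46%, and the CArG box in 1 against 1.47%. CANNTG, the E-box, which is not capitalized, was in 9 of the 14 against 66.2% of all promoters. No motif overlapped another in these 14 windows. A match is a description of letters and was not tested as a binding site.

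Igf1, the growth hormone-dependent ligand, had 1.97, 3.11, and 1.60 FPKM in Gm31629-/- mice 1 to 3 and 0.0273, 0.107, and 0.0645 FPKM in WT mice 1 to 3. The lowest Gm31629-/- mouse was 15.1 times as high as the highest WT mouse. The means were 2.23 ± 0.784 and 0.0661 ± 0.0397 FPKM (SD, n = 3 each), a ratio of 33.7, and the log2 fold change on log2(FPKM + 1) was 1.57 (standard error 0.20), a scale that compresses genes with low FPKM. The WT libraries held 5, 19, and 12 fragments of Igf1, so that counting error limits the WT level. Over the pooled fragments, 1219 in Gm31629-/- mice and 36 in WT mice, the ratio was 33.9 with an exact 95% interval of 24.4 to 48.6, which covers counting error only.

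Igf2, the ligand expressed from the paternal copy, was flat within each group. It had 1.34, 1.31, and 1.26 FPKM in Gm31629-/- mice 1 to 3 and 0.142, 0.155, and 0.195 FPKM in WT mice 1 to 3. The means were 1.30 ± 0.0420 and 0.164 ± 0.0278 FPKM (SD, n = 3 each), a ratio of 7.93, and the log2 fold change was 0.98 (standard error 0.14). Igf1 exceeded Igf2 in every Gm31629-/- library, by 1.28 to 2.38 times, and was below it in every WT library, at 0.193 to 0.686 times its level. The WT order rests on few fragments, 5, 19, and 12 of Igf1 and 15, 16, and 21 of Igf2 in WT mice 1 to 3. In WT mouse 2 Igf1 had more fragments than Igf2 and was below it only after scaling by gene length. Of the transcripts known to be co-regulated with Igf2, H19, the noncoding RNA beside it, was under the filter with 0.321, 0.525, and 0.229 FPKM in Gm31629-/- mice 1 to 3 and 0.0912, 0.0468, and 0.0224 FPKM in WT mice 1 to 3, the latter from 4, 2, and 1 fragments.

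The receptors differed from each other. Igf1r had 3.01, 2.83, and 1.69 FPKM in Gm31629-/- mice 1 to 3 and 0.769, 0.850, and 0.963 FPKM in WT mice 1 to 3. The groups were apart by a smaller margin than for the ligands, with the lowest Gm31629-/- mouse at 1.76 times the highest WT mouse. The means were 2.51 ± 0.716 and 0.861 ± 0.0974 FPKM (SD, n = 3 each), a ratio of 2.92, and the log2 fold change was 0.90 (standard error 0.20). Igf2r had 15.5, 16.8, and 13.1 FPKM in Gm31629-/- mice 1 to 3 and 12.9, 14.9, and 16.1 FPKM in WT mice 1 to 3, and the groups overlapped. Its means were 15.1 ± 1.89 and 14.6 ± 1.62 FPKM (SD, n = 3 each). The log2 fold change of Igf2r was 0.05 (standard error 0.16) as deposited and -0.20 after median ratio scaling, so its direction depended on the scaling. Within a library, Igf2r was 16.7 to 17.5 times as abundant as Igf1r in WT mice and 5.15 to 7.74 times as abundant in Gm31629-/- mice. The insulin receptor gene Insr averaged 5.78 ± 1.88 FPKM in Gm31629-/- and 5.19 ± 0.857 FPKM in WT mice (SD, n = 3 each), with overlap. Its log2 fold change of 0.10 (standard error 0.24) did not pass the test (limma adjusted p = 0.749).

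Among the binding proteins, Igfbp3, the main carrier of IGFs in serum, showed the least spread. It had 26.4, 25.7, and 25.9 FPKM in Gm31629-/- mice 1 to 3 and 1.04, 1.30, and 1.16 FPKM in WT mice 1 to 3. The 3 mice of the Gm31629-/- group differed by a coefficient of variation of 1.32%, the lowest of the 10 genes in that group. The ratio of the means was 22.4, and the log2 fold change was 3.64 (standard error 0.14).

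Igfbp4, Igfbp5, and Igfbp7 were the most abundant binding proteins in both groups, with wide spread among mice. Igfbp5, a binding protein that attaches to the extracellular matrix, had 96.4, 475, and 177 FPKM in Gm31629-/- mice 1 to 3 and 3.59, 13.2, and 4.94 FPKM in WT mice 1 to 3. The means were 249.6 ± 199 and 7.24 ± 5.19 FPKM (SD, n = 3 each), a ratio of 34.5. The ratio was 18.9 without Gm31629-/- mouse 2, 58.5 without WT mouse 2, and 45.1 without Gm31629-/- mouse 1. The log2 fold change of Igfbp5 was 4.79 (standard error 0.63), and 4.18 without Gm31629-/- mouse 2. In Gm31629-/- mouse 2 it ranked 70 of all listed genes by FPKM, against a rank of 3630 to 7579 in the WT libraries. Igfbp4, a binding protein cleaved by the protease PAPP-A, had 46.8, 243.7, and 171.7 FPKM in Gm31629-/- mice 1 to 3 and 6.24, 17.3, and 9.63 FPKM in WT mice 1 to 3. The groups were separate, but the lowest Gm31629-/- mouse was only 2.71 times the highest WT mouse. The means of Igfbp4 were 154 ± 99.6 and 11.05 ± 5.65 FPKM (SD, n = 3 each), a ratio of 13.9 with all mice and 18.8 without Gm31629-/- mouse 1, and its log2 fold change was 3.50 (standard error 0.62) with all mice and 4.20 without that mouse. Igfbp7 had 85.2, 261, and 223 FPKM in Gm31629-/- mice 1 to 3 and 8.14, 17.1, and 10.2 FPKM in WT mice 1 to 3. Its means were 189.7 ± 92.4 and 11.8 ± 4.69 FPKM (SD, n = 3 each), a ratio of 16.1 with all mice and 20.5 without Gm31629-/- mouse 1 (log2 fold change 3.81, standard error 0.45). For these 3 genes, Gm31629-/- mouse 1 and WT mouse 1 were the lowest of their groups and Gm31629-/- mouse 2 and WT mouse 2 the highest.

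Igfbp6, which prefers IGF2, followed another order among the mice. It had 31.8, 32.7, and 6.02 FPKM in Gm31629-/- mice 1 to 3 and 0.146, 0.649, and 0.526 FPKM in WT mice 1 to 3, so that Gm31629-/- mouse 3 was low beside the others but above every WT mouse. The means were 23.5 ± 15.2 and 0.440 ± 0.262 FPKM (SD, n = 3 each), a ratio of 53.4, and the log2 fold change was 3.80 (standard error 0.59), or 4.55 without Gm31629-/- mouse 3. Igfbp2 was nearly absent from WT colon, with 0, 5, and 1 fragments in WT mice 1 to 3 and 155, 143, and 266 fragments in Gm31629-/- mice 1 to 3. A value of 0 allows up to 3 fragments, which is 0.0878 FPKM in WT mouse 1. Its FPKM was 4.56, 4.20, and 7.84 in Gm31629-/- mice 1 to 3 and 0, 0.150, and 0.0288 in WT mice 1 to 3, and the ratio of pooled fragments was 94.1 with an exact 95% counting interval of 43.0 to 258 (log2 fold change of FPKM 2.58, standard error 0.23). Of the 6 WT fragments, 5 were from WT mouse 2, and the ratio of mean FPKM was 92.6 with all mice and 384 without that mouse. Igfbp1 was not analysed here, and the related Igfbpl1 held at most 3 fragments in a Gm31629-/- library and 7 in a WT library.

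The order of the levels changed between the groups. In Gm31629-/- mice the group means descended from Igfbp5 through Igfbp7 and Igfbp4 to Igfbp3, Igfbp6, Igf2r, Igfbp2, Igf1r, Igf1, and Igf2. The ranges of Igfbp5, Igfbp7, and Igfbp4 overlapped, as did those of Igf1r with Igf1. The range of Igfbp6 overlapped those of Igfbp3, Igf2r, and Igfbp2, and in mouse 3 Igfbp6 was below Igf2r and Igfbp2. In WT mice Igf2r had the highest mean, followed by Igfbp7, Igfbp4, and Igfbp5, whose ranges overlapped, and the lowest were Igf2, Igf1, and Igfbp2. In WT mouse 2, Igfbp4 and Igfbp7 exceeded Igf2r, and in WT mice 1 and 3 Igf2r was first.

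The 6 binding proteins summed to 291, 1042, and 612 FPKM in Gm31629-/- mice 1 to 3 and to 19.2, 49.6, and 26.4 FPKM in WT mice 1 to 3. Igfbp5 took 33.1%, 45.6%, and 29.0% of this sum in Gm31629-/- mice 1 to 3 and 18.7%, 26.5%, and 18.7% in WT mice 1 to 3, without overlap. The share of Igfbp4 was lower in Gm31629-/- mice (16.1%, 23.4%, and 28.1%) than in WT mice (32.6%, 34.8%, and 36.4%). Igfbp6 took 10.9% of the sum in Gm31629-/- mouse 1 and 0.984% in mouse 3, and overlapped the WT range of 0.761% to 1.99%. Per FPKM of the 2 ligands together there were 88.0 to 236 FPKM of binding proteins in Gm31629-/- mice and 102 to 189.6 FPKM in WT mice, so that the ratio of binding protein to ligand transcripts overlapped between groups although both sums were apart.

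**Figure D2:**
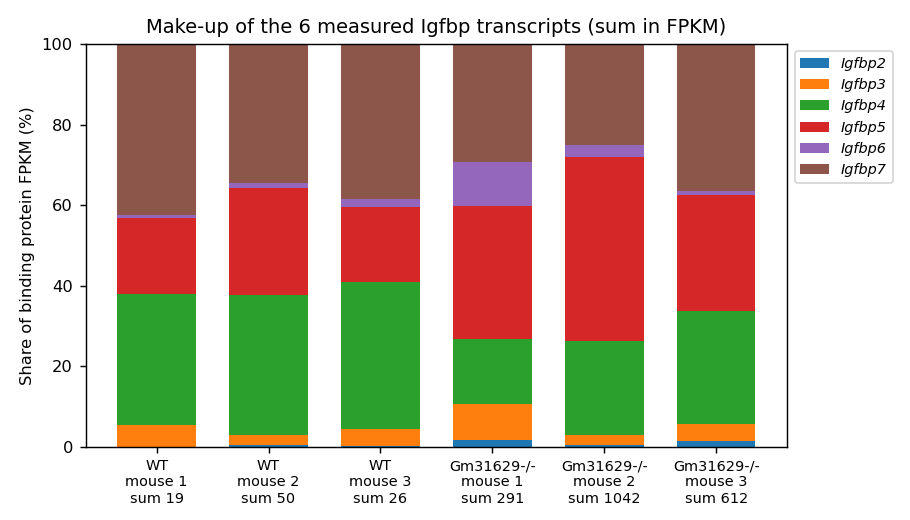
Share of the summed FPKM of the 6 measured binding protein genes taken by each gene, in percent, in each library, with the sum under each bar. Igfbp5 takes 18.7% to 26.5% in WT mice and 29.0% to 45.6% in Gm31629-/- mice, and Igfbp4, Igfbp5, and Igfbp7 together take 78.4% to 95.8% in the 6 libraries.

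Markers of other cell types moved with the group. All 12 fibroblast markers, all 12 smooth muscle markers, all 12 enteric neuron and glia markers, and all 10 endothelial markers were higher in every Gm31629-/- mouse than in any WT mouse, which held for 36.3% of all tested genes. Fibroblast markers summed to 285.5 to 808 FPKM in Gm31629-/- mice and 28.0 to 50.3 FPKM in WT mice, with none at 0 in all WT libraries. The sums of smooth muscle markers were 1610 to 2625 FPKM and 28.3 to 54.3 FPKM, with none at 0, and those of endothelial markers 68.6 to 124.9 FPKM and 3.00 to 8.37 FPKM, with none at 0. Neuron and glia markers summed to 42.8 to 148 FPKM and 2.96 to 5.58 FPKM, with Elavl4 at 0 in every WT library. Macrophage markers summed to 332 to 669 FPKM and 43.5 to 53.7 FPKM (7 of 8 without overlap), and adipocyte markers to 144 to 512 FPKM and 13.6 to 57.0 FPKM (5 of 7), with none at 0 in either list. Mesothelial markers, which mark the outer lining of the gut, summed to 3.82 to 45.5 FPKM and 2.51 to 3.00 FPKM (6 of 7), with Wt1, Gpm6a, and Bnc1 at 0 in every WT library. The marker lists were chosen with earlier results of these data known, so nothing is read from their counts. The part of these cell types in the differences of the IGF genes was not tested.

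The order among the Gm31629-/- mice differed between members as it did between marker lists. Igfbp4, Igfbp5, and Igfbp7 were highest in mouse 2 and lowest in mouse 1, as were the summed fibroblast markers (285.5, 808, and 520.2 FPKM in mice 1 to 3) and endothelial markers (68.6, 124.9, and 94.4 FPKM). Igfbp6 was lowest in mouse 3, as were 5 of the 8 marker sums. These were the mesothelial (24.4, 45.5, and 3.82 FPKM), neuron and glia (98.6, 148, and 42.8 FPKM), smooth muscle (2625, 1827, and 1610 FPKM), adipocyte (208, 512, and 144 FPKM), and macrophage markers (353, 669, and 332 FPKM). Igfbp2 was highest in mouse 3, as was, of the 8 marker lists, the summed epithelial list (7191, 7797, and 8701 FPKM). Igf2 and Igfbp3 had coefficients of variation of 3.23% and 1.32%, below that of each of the 8 sums, of which the epithelial sum had 9.62% and the others 26.5% to 84.8%. Igf2r had 12.5%.

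**Figure D3:**
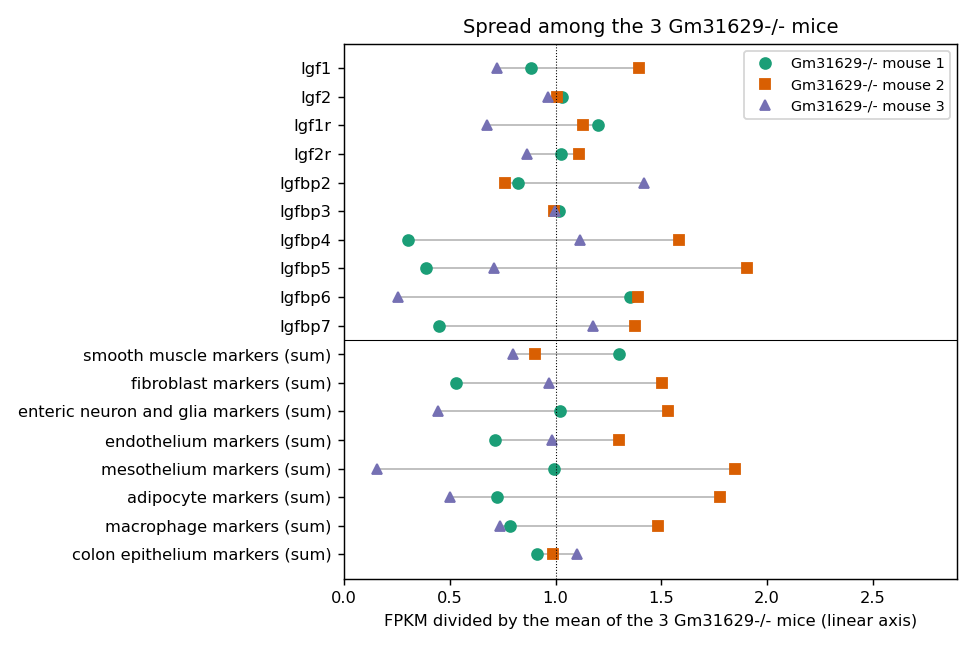
FPKM of each member (upper rows) and summed FPKM of each marker list (lower rows) in the 3 Gm31629-/- mice, divided by the mean of these 3 mice on a linear axis, with a symbol for each mouse. Igfbp3 and Igf2 lie close to 1 in all 3 mice, Igfbp4, Igfbp5, and Igfbp7 spread with mouse 2 highest, and Igfbp6 has mouse 3 lowest.

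Set beside the fibroblast markers of the same library, the members separated. Igfbp7 was 29.8%, 32.3%, and 42.9% of the summed fibroblast markers in Gm31629-/- mice 1 to 3 and 29.1%, 34.0%, and 31.7% in WT mice 1 to 3, and Igfbp4 was 16.4% to 33.0% and 22.3% to 34.4%, so that both overlapped. Igfbp5 was 33.8% to 58.8% in Gm31629-/- mice and 12.8% to 26.2% in WT mice, without overlap. Igf1 was also apart, at 0.309% to 0.690% against 0.0976% to 0.212%, as was Igfbp2, at 0.519% to 1.60% against 0% to 0.299%. Igf2, Igfbp3, and Igfbp6 overlapped, and Igf1r and Igf2r were lower per fibroblast marker in every Gm31629-/- mouse. In FPKM, Igf1r was higher in every Gm31629-/- mouse and Igf2r overlapped, so these lower quotients come from the larger marker sum. Beside smooth muscle markers the orders differed. Igfbp5 was 3.67% to 26.0% in Gm31629-/- mice and 12.7% to 24.3% in WT mice, and Igf1, Igfbp2, and Igfbp6 also overlapped. The other 6 genes were lower per smooth muscle marker in every Gm31629-/- mouse, although none of them was called lower in FPKM.

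**Figure D4:**
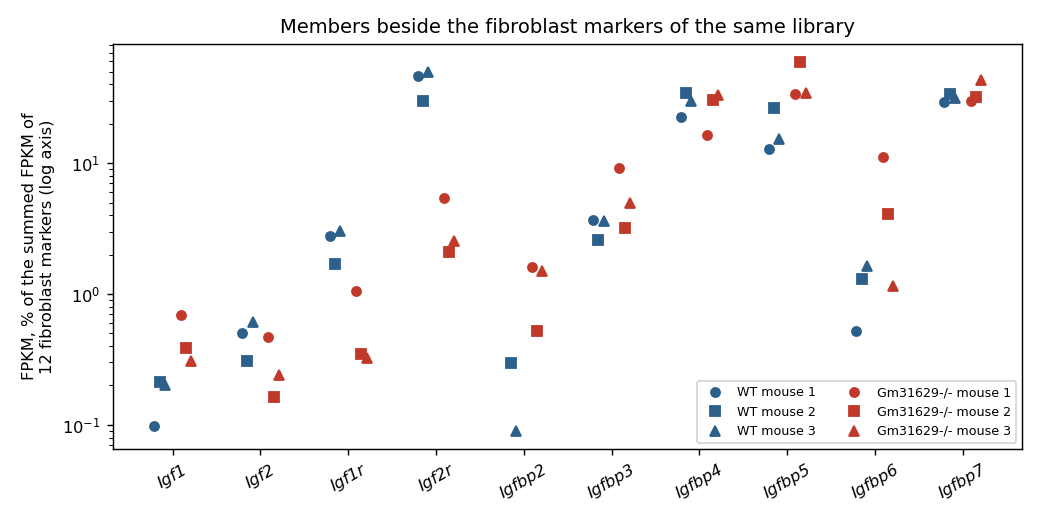
FPKM of each member as a percentage of the summed FPKM of 12 fibroblast markers in the same library (log axis), for 3 WT (blue) and 3 Gm31629-/- (red) mice. Igf1, Igfbp2, and Igfbp5 lie higher and Igf1r and Igf2r lower in Gm31629-/- mice, the other 5 genes overlap, and the WT mouse with Igfbp2 at 0 is not drawn.

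The genes with the nearest pattern were sought among 7242 genes averaging 5 FPKM or more, by the root mean square difference of centered log2(FPKM + 1) over the 6 libraries. For Igf1 these were Map3k6 (0.064), Tmem86a (0.090), and Mcrip1 (0.091), which have higher FPKM. They were near only on this scale, which compresses the low FPKM of Igf1, and their FPKM differed far less between the groups. Tmem86a had 8.93, 12.5, and 7.44 FPKM in Gm31629-/- mice 1 to 3 and 2.84, 3.18, and 2.88 FPKM in WT mice 1 to 3. The ratio of the means of Igf1 was 33.7. For Igf1r the nearest genes were Ephx1 (0.063), Mllt11 (0.081), and Cep120 (0.083). For Igfbp5 the nearest were farther away: Ccl11 (0.40), Fn1 (0.43), and Kcnj8 (0.47). After the values were seen, Igfbp7 and Igfbp6 were added, for which the nearest genes were Plvap, Col6a1, and Pnliprp2 (0.10 to 0.15) and Scg2, Htr3a, and Gal (0.21 to 0.30). These distances share the 6 libraries and are descriptions.

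Other genes of the pathway were taken from 7 lists of 79 genes, of which 67 were tested in the same limma fit. Of these, 18 were called higher in Gm31629-/- mice (26.9%, against 18.4% of all tested genes), of which 10 had a WT mean under 0.5 FPKM and passed the filter only through the Gm31629-/- mice, and 3 were called lower (4.48%, against 4.64%), with a median log2 fold change of 0.33. With the adjusted p alone, 25 were higher and 7 lower, where the shares of all genes were 28.9% and 14.6%. Without Gm31629-/- mouse 1, 17 were called higher and 3 lower. The 7 lists were chosen with earlier results of these data known, so nothing is read from these shares. The single lists below are small, and their counts are not read against the shares of all genes.

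The list of genes around the binding proteins holds proteases and their inhibitors, and also Igfals, a subunit of the serum IGF complex, and the Igf2 mRNA-binding proteins. Of its 7 tested genes, 4 rose and 2 fell. Of the 4 that rose, 3 (Pappa, Pappa2, and Stc1) had a WT mean under 0.5 FPKM. They passed the filter on low values only through the Gm31629-/- mice. Htra1, a serine protease that cleaves IGFBPs, rose from 2.17 ± 0.840 FPKM in WT mice to 31.8 ± 17.7 FPKM in Gm31629-/- mice (SD over 3 mice each, limma adjusted p = 0.00241, log2 fold change 3.21 with a standard error of 0.48). Pappa, which encodes the protease PAPP-A, rose from 0.0887 ± 0.0162 FPKM in WT mice to 4.33 ± 2.21 FPKM in Gm31629-/- mice (SD over 3 mice each, limma adjusted p = 0.00285, log2 fold change 2.18 with a standard error of 0.34). The log2 fold changes of Htra1 and Pappa were 3.78 and 2.60 without Gm31629-/- mouse 1. Pappa2 and Stc1, an inhibitor of PAPP-A, were the other 2 that rose, with log2 fold changes of 1.48 and 1.38. Stc2, a related inhibitor of PAPP-A, fell, with 3.24, 1.28, and 1.77 FPKM in Gm31629-/- mice 1 to 3 and 8.78, 8.70, and 8.02 FPKM in WT mice 1 to 3 (limma adjusted p = 0.00218, log2 fold change -1.67 with a standard error of 0.24). Igf2bp2, which encodes an RNA-binding protein for Igf2 mRNA and not an IGF-binding protein, fell as well, from 14.3 ± 1.72 FPKM in WT mice to 3.46 ± 1.37 FPKM in Gm31629-/- mice (SD over 3 mice each, limma adjusted p = 0.00144, log2 fold change -1.81 with a standard error of 0.23).

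Of the genes with an IGFBP-type domain outside the family, such as the CCN matricellular proteins, 4 of 7 tested rose and 1 fell. Of the 4 that rose, 2 (Ccn4 and Esm1) had a WT mean under 0.5 FPKM and passed the filter only through the Gm31629-/- mice. Ccn2 (connective tissue growth factor) rose from 0.614 ± 0.497 FPKM in WT mice to 10.1 ± 3.13 FPKM in Gm31629-/- mice (SD over 3 mice each, limma adjusted p = 0.000724, log2 fold change 2.78). Ccn4 rose by 1.46, and Esm1 by 1.34, on the log2 scale. Ccn1 had 21.5 ± 15.3 against 4.62 ± 0.693 FPKM and Ccn3 7.81 ± 3.59 against 23.7 ± 11.9 FPKM in Gm31629-/- and WT mice (SD, n = 3 each), with log2 fold changes of 1.73 and -1.45 and limma adjusted p of 0.0332 and 0.0240. Without Gm31629-/- mouse 1, Ccn1 had a log2 fold change of 2.36. The call of Ccn1 was lost in the fits without any 1 mouse except Gm31629-/- mouse 1, with adjusted p of 0.0637 (without Gm31629-/- mouse 2) to 0.108 (without WT mouse 3), and that of Ccn3 without Gm31629-/- mouse 2 or 3 or WT mouse 1 or 2 (0.0576 to 0.0793). With no filter on low values, the limma adjusted p was 0.0683 for Ccn1 and 0.0511 for Ccn3, and that of Ccn1 was 0.0528 after median ratio scaling and 0.0503 with limma voom.

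On the receptor side, 1 of 11 tested receptor and adaptor genes was called, namely Grb10. Its WT mean was under 0.5 FPKM, so it passed the filter only through the Gm31629-/- mice. Grb10, an imprinted adaptor that dampens signaling from the IGF1 and insulin receptors, rose from 0.0921 ± 0.0420 FPKM in WT mice to 3.58 ± 1.16 FPKM in Gm31629-/- mice (SD over 3 mice each, limma adjusted p = 0.000630, log2 fold change 2.04 with a standard error of 0.21). Of the 23 PI3K, AKT, and mTOR genes, which carry the signal inside cells, 3 were called higher and 0 lower in the limma fit, and 7 were higher and 3 lower by the adjusted p alone. Pik3cd rose by 1.79 and Pik3ca by 1.07 on the log2 scale (limma adjusted p = 0.000715 and 0.00283), and Pik3ca had 0.86 after median ratio scaling, under the fold threshold. In the growth hormone axis, which drives Igf1 in liver, 2 of 6 rose. Ghr, the growth hormone receptor gene, rose from 0.594 ± 0.186 FPKM in WT mice to 3.59 ± 1.32 FPKM in Gm31629-/- mice (SD over 3 mice each, limma adjusted p = 0.00387, log2 fold change 1.49 with a standard error of 0.25). Jak2 rose by 1.06 (limma adjusted p = 0.00854), and had log2 fold changes of 0.82 after median ratio scaling, 0.97 without Gm31629-/- mouse 2, and 0.86 without WT mouse 3, under the fold threshold.

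Of the imprinted genes, 4 of 6 tested rose, and all 4 had a WT mean under 0.5 FPKM and passed the filter only through the Gm31629-/- mice, so their count is not read against the background. Ndn rose by 2.56, Meg3 by 2.40, and Mest by 1.64 on the log2 scale (limma adjusted p = 0.00190, 0.00622, and 0.00873). Peg3 had a log2 fold change of 1.30 (limma adjusted p = 0.0286). Without Gm31629-/- mouse 1 this was 0.90, under the fold threshold, and in the fits without Gm31629-/- mouse 2 or any WT mouse the limma adjusted p was 0.0618 to 0.0867, and 0.0592 with no filter on low values. For all 4 genes, as for Igfbp6, Gm31629-/- mouse 3 was the lowest of its group. Of the 7 genes of mannose 6-phosphate sorting, in which the protein of Igf2r acts, 0 were called in the limma fit and 0 had an adjusted p under 0.05, and the median log2 fold change was -0.05. M6pr, the smaller receptor of this pathway, had 38.8 ± 3.99 FPKM in Gm31629-/- mice and 50.1 ± 3.84 FPKM in WT mice (SD over 3 mice each, limma adjusted p = 0.0728, log2 fold change -0.36).

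**Figure D5:**
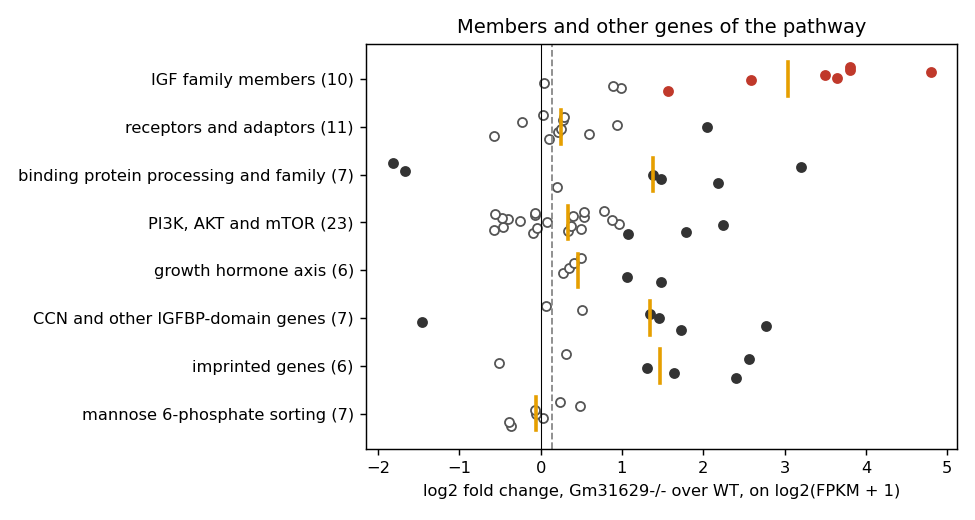
Log2 fold change of Gm31629-/- over WT mice on log2(FPKM + 1) for the 10 members and for the tested genes of 7 pathway lists (number tested in parentheses); each point is a gene, filled where called. Orange bars are list medians, from -0.05 for mannose 6-phosphate sorting to 3.04 for the members, which were selected on this contrast, and the dashed line is the median of all tested genes, 0.15.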

How the data were processed

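The authors deposited 1 table of FPKM values for 27546 genes, with 3 columns for Gm31629-/- and 3 for WT. The submitters' processing notes name HISAT2 2.1.0, HTSeq 0.6.0, and GRCm38, and the annotation release and the use of strand are not given in the sources used here. The methods state that total RNAs of the mice were pooled, whereas the table has 6 columns, numbered within each genotype. The 6 libraries were treated as separate mice, which the labels do not state.

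Symbols, positions, and exon lengths came from GENCODE M21 (GRCm38), which matched 27488 identifiers. Multiplying FPKM by exon length and an estimated depth gave fragments, and in each library 96.3% to 97.2% of the values of 20 or less came out whole to within 0.1. Limits from fragments cover counting error only.

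The groups were tested with limma 3.58.1 (R 4.3.3), by lmFit and trended eBayes, for 14657 genes averaging 0.5 FPKM or more, after log2 transformation with a pseudocount of 1. Benjamini-Hochberg adjustment covered all of them. A gene was called where the log2 fold change exceeded 1 in size and the adjusted p was under 0.05. The fit was tested on simulated data. The members, the 7 pathway lists, and the 8 marker lists were chosen with earlier results of these data known. Genes named beyond the members are up to 4 called genes of each pathway list by size of change, a few fixed ones (Igfbp1, Igfbpl1, Insr, Ghr, H19), and the 3 nearest patterns. Values of some list genes are not reported here. Stc1, Pappa2, Esm1, M6pr, Airn, Polr2b, and the epithelial markers were named after their values were seen. Alternatives were another pseudocount, other filters, the TPM scale, median ratio scaling, eBayes without a trend, a replicate block, leaving out each mouse, limma voom on the recovered fragments, and the adjusted p alone. Promoter sequences were RefSeq's (GRCm38.p6). Figures were drawn with matplotlib 3.10.9.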

Additional observations from a re-analysis of the deposited data

How the results depend on the processing

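Over the alternatives, the log2 fold changes of 9 of the 10 IGF genes stayed positive. The log2 fold change of Igf2r reversed after median ratio scaling (-0.20), and in the fits that left out 1 mouse it ran from -0.035 (without WT mouse 1; -0.027 without Gm31629-/- mouse 2) to 0.14. That of Insr reversed after median ratio scaling (-0.12) and ran from -0.095 (without Gm31629-/- mouse 1) to 0.32. Igf2 and Igf1r passed the fold threshold with a pseudocount of 0.1 (2.41 and 1.41) and with limma voom on the recovered fragments (2.96 and 1.51), so that 9 members were called higher under both. They also passed in 1 fit each that left out a mouse, Igf2 without WT mouse 3 (1.00) and Igf1r without Gm31629-/- mouse 3 (1.08), and 7 to 8 members were called higher over the 6 such fits. With a mean FPKM of at least 5, Igf1, Igf2, Igf1r, and Igfbp2 were not tested, 5 members were called higher, the genes called higher numbered 956 in place of 2704, and the pathway genes called higher 6 in place of 18. Median ratio scaling gave 1217 genes called lower in place of 680, with 2233 higher. With the adjusted p alone, 4238 genes were higher and 2138 lower, and 7 pathway genes were lower in place of 3. Replicate numbers were shared between the groups. Same-numbered mice had correlations of 0.036, -0.11, and 0.014 between their deviations from the group means. With 3 mice in each group, these values cannot exclude a shared litter, cage, or batch. With the replicate block, 2709 genes were called higher and 648 lower, and 7 members were called higher. For the named pathway genes, 232 values kept their direction and call over the alternatives, 23 lost the call, and the 2 of Insr reversed. The order of the members by log2 fold change depended on the pseudocount. Igfbp5 had the highest with 1, whereas Igfbp6 (5.25) and Igfbp2 (5.20) were above it with 0.1. Depth limits the WT levels of Igfbp2, Igf1, and Igfbp6, which rest on 6, 36, and 27 fragments in all.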
